A study of Mus musculus with 22 samples.

Results

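The ionotropic glutamate receptor subunits are the proteins that assemble into glutamate-gated ion channels. In this series of purified mouse retinal neurons they were taken as the 9 genes of the deposited expression table named Gria1, Gria2, Gria3 and Gria4 (AMPA class, 4 genes), Grik1, Grik2, Grik3 and Grik5 (kainate class, 4 genes) and Grid1 (delta class, 1 gene), out of 13785 genes with a symbol. All 9 passed the filter on low values. RNA was sequenced from bipolar cells at postnatal days 7, 13 and 30 (P7, P13, P30), from rod bipolars and cone bipolars at P13, and from rods and cones at P7, P13 and P30, with 2 libraries in each of the 11 groups and 22 libraries in all. The design text calls the bipolars ON-bipolar cells. The labels give every group as sorted retinal cells whose mRNA was linearly amplified before library preparation, and name no strain, reporter or treatment and no number of animals.

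Photoreceptors signal light by releasing less glutamate onto bipolar cells. OFF bipolar cells read that signal with AMPA and kainate receptors, whereas ON bipolar cells, among them the rod bipolars, use the metabotropic receptor encoded by Grm6. Photoreceptor axons contact bipolar and horizontal cell processes and are not classical targets of ionotropic glutamate input. In AMPA receptors the Gria2 subunit, once its RNA is edited, lowers calcium permeability. Grik5 makes a working kainate channel only together with a subunit of the Grik1 to Grik3 kind, and Grid1 links to cerebellins and presynaptic neurexins.

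Libraries held 14403312 to 54384385 reads assigned to genes, of which mitochondrial genes took 2.18% to 38.7%. CPM are counts scaled by an effective library total, which was 0.608 to 1.23 times the assigned reads. This factor was lowest in P30 cones (0.608 and 0.711). In a library 3 reads correspond to 0.0541 to 0.170 CPM, so a lower level was near the limit of detection. Summed rod markers lay at 13323 to 25854 CPM in rod libraries and at 3194 to 9409 CPM in cone libraries. Summed markers of ON bipolars lay at 2673 to 13641 CPM in bipolar libraries, at 7.64 to 21.1 CPM in rod libraries and at 23.8 to 151 CPM in cone libraries. Summed markers of OFF bipolars, a class the ON label does not name, lay at 288 to 671 CPM in the P7, P13 and P30 bipolar libraries, at 30.7 and 63.4 CPM in rod bipolars and at 322 and 365 CPM in cone bipolars. Since each library is a pool of sorted cells, a lower level from fewer cells of a type and one from less RNA per cell cannot be told apart. No label ties the 2 libraries of a group to separate animals. The p-values therefore weigh differences against library-to-library scatter, part of which may be technical.

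The receptor genes were mostly bipolar genes. Gria2, Gria4, Grik1 and Grid1 were higher in each of the 10 bipolar libraries than in any of the 12 photoreceptor libraries. The ranges of Gria1 and Gria3 overlapped slightly, and those of Grik2, Grik3 and Grik5 overlapped broadly. Against the mean of rods and cones, limma called 6 of the 9 genes higher in bipolars at P7, where 11.6% of all tested genes were called higher. It called 7 of 9 higher at P13, against 20.6% of all genes, and 7 of 9 higher at P30, against 22.6%. A call means an adjusted p below 0.05 and a difference of at least 1 on the log2 scale. None of the 9 was called lower at any age, against 11.1%, 12.8% and 13% of all genes. The median difference of the 9 genes, with groups that held no reads set to 3 reads, was 5.15 at P7, 7.16 at P13 and 6.05 at P30 on the log2 scale, against 0.12, 0.18 and 0.13 over all genes.

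**Figure D1:**
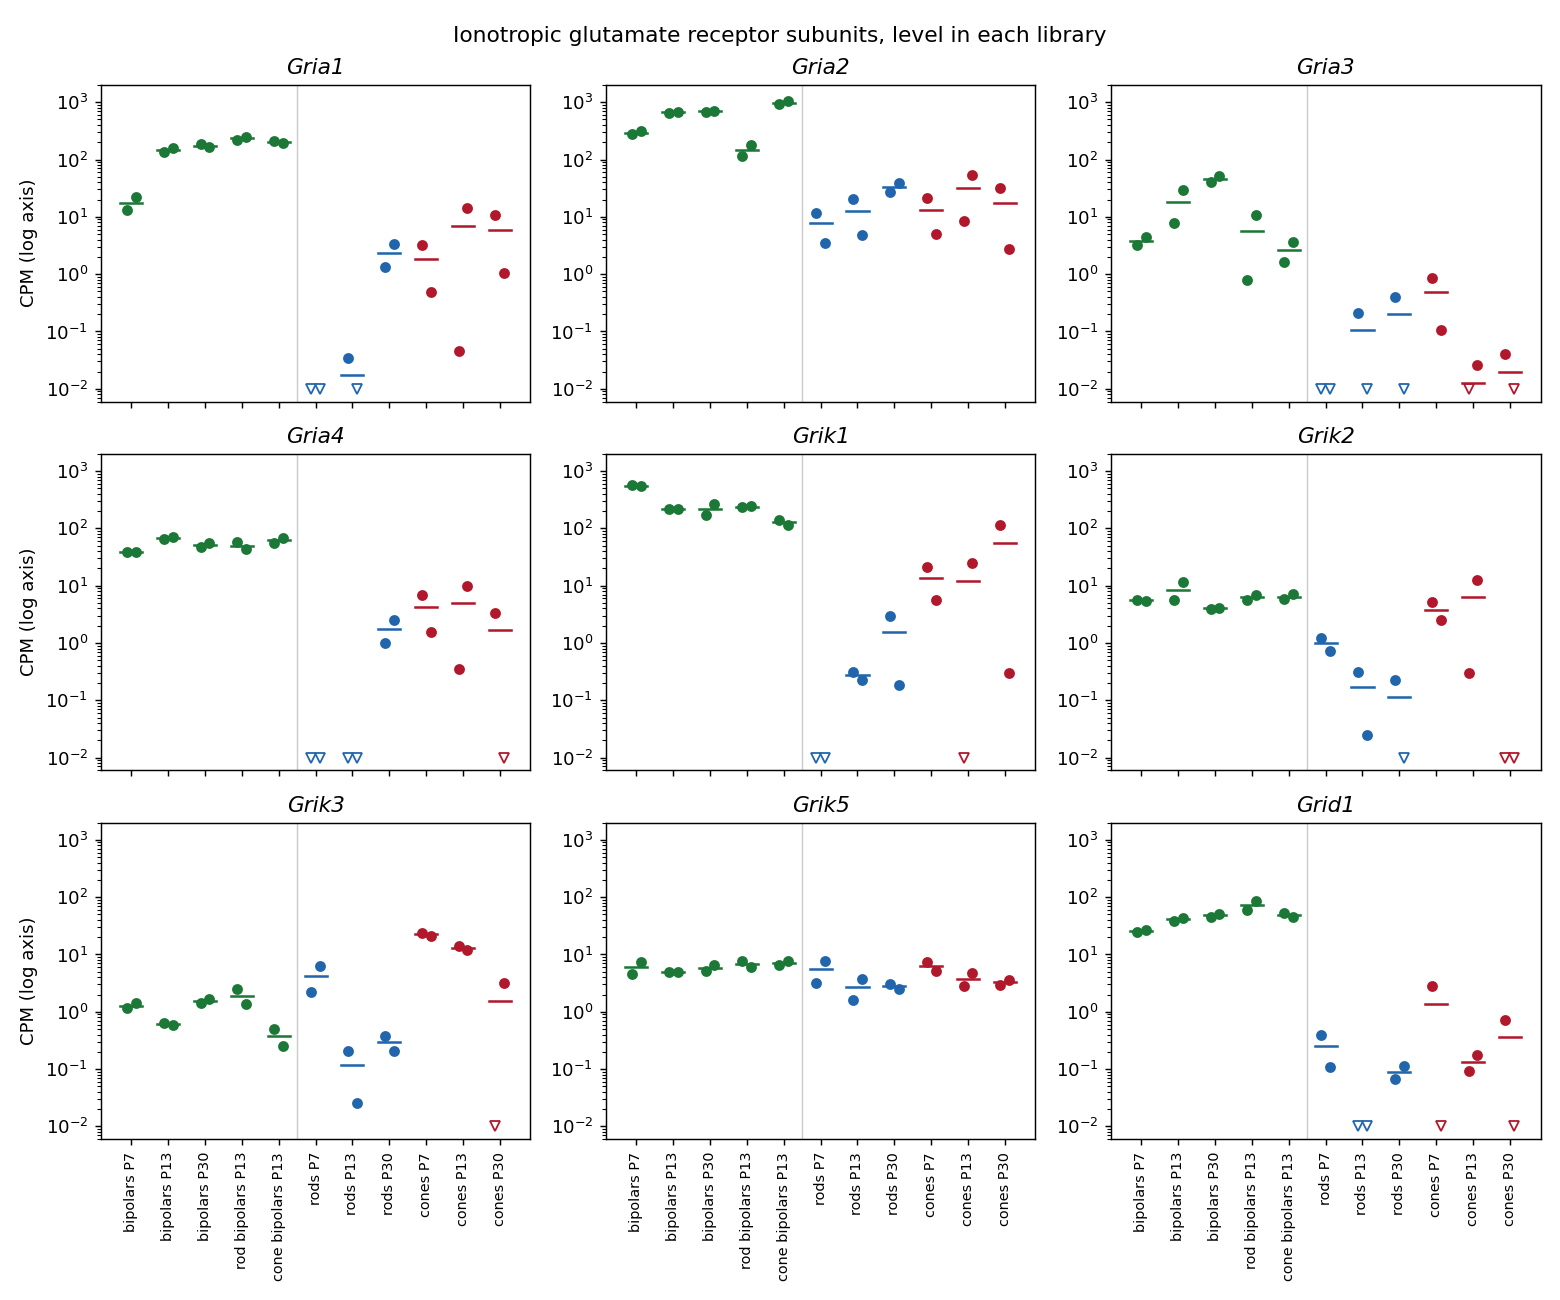
Level of each subunit gene in each library, in CPM on a log axis, with bipolar groups (green) left of rods (blue) and cones (red). Dots are libraries, bars are group means of 2 libraries and open triangles at the bottom are libraries with no read. The AMPA genes, Grik1 and Grid1 stood highest in the bipolar groups, Grik3 stood highest in P7 and P13 cones, and Grik5 lay between 1.62 and 7.78 CPM everywhere.

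Gria2 (chr3:80681450-80802835, minus strand, GRCm38) had the highest CPM of the AMPA genes in every group other than rod bipolars. Bipolars had 276 and 309 CPM at P7, 659 and 663 CPM at P13 and 688 and 701 CPM at P30. Rods had 11.9 and 3.51 CPM at P7, 20.3 and 4.75 CPM at P13 and 27.4 and 38.5 CPM at P30. Cones had 21.5 and 5.12 CPM at P7, 8.32 and 54.3 CPM at P13 and 31.9 and 2.77 CPM at P30. Every bipolar value lay above every photoreceptor value, and Gria2 was the one AMPA gene with reads in all 12 photoreceptor libraries. The log2 differences of bipolars from photoreceptors were 5.15 ± 0.90 (SE), 5.52 ± 0.90 and 5.31 ± 0.90 at the 3 ages, with limma adjusted p = 0.00045, 0.00018 and 0.00024. The ratio of bipolar to rod means was 38.0 at P7, 52.8 at P13 and 21.1 at P30, and that of bipolar to cone means was 21.98, 21.1 and 40.0.

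Gria1 (chr11:57011387-57330244, plus strand), the subunit that often forms calcium-permeable AMPA channels when Gria2 is scarce, differed between the ages of bipolars. Bipolars had 13.2 and 22 CPM at P7, 134 and 157 CPM at P13 and 187 and 163 CPM at P30. Neither P7 rod library held a Gria1 read, and the P13 rod libraries held 1 read between them. Rods had 1.31 and 3.33 CPM at P30. Cones had 3.22 and 0.487 CPM at P7, 0.0464 and 14.0 CPM at P13 and 10.6 and 1.03 CPM at P30, so 1 P13 cone library reached the lowest bipolar value. Bipolars exceeded photoreceptors by 7.47 ± 1.57, 10.20 ± 1.57 and 6.05 ± 1.57 on the log2 scale, with limma adjusted p = 0.002, 0.00011 and 0.006. Because a library with no read is given -7.10 on the deposited log2 scale, fitted differences against such groups depend on that value. Set against 3 reads over the group, bipolar Gria1 was at least 560-fold higher than rod Gria1 at P7.

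Gria4 (chr9:4417896-4796234, minus strand), the subunit of fast AMPA channels, had means of 39.3 to 67.2 CPM over the bipolar groups. It had 39.4 and 39.2 CPM in P7 bipolars, 64.3 and 70.2 CPM in P13 bipolars and 47.1 and 56.5 CPM in P30 bipolars. All 4 rod libraries of P7 and P13 held no Gria4 read, and P30 rods had 0.996 and 2.55 CPM. Cones had 6.76 and 1.57 CPM at P7, 0.348 and 9.74 CPM at P13 and 3.32 and 0 CPM at P30. No photoreceptor library reached the lowest bipolar value, and bipolars were higher by 7.99 ± 1.73, 9.17 ± 1.73 and 6.69 ± 1.73 on the log2 scale, with limma adjusted p = 0.0025, 0.00062 and 0.0057. Bipolar Gria4 was at least 1250-fold higher than rod Gria4 at P7 and at least 1529-fold higher at P13. At P30 the difference from photoreceptors was not called without bipolar library 2, where it was 6.56, or with only the compared groups fitted (limma adjusted p = 0.084).

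Gria3 (chrX:41400854-41678601, plus strand), a further AMPA subunit, was the scarcest AMPA gene in the bipolar groups. Bipolars had 3.26 and 4.46 CPM at P7, 7.66 and 29.3 CPM at P13 and 40.7 and 51.4 CPM at P30. In the photoreceptors 6 of 12 libraries held no read and the highest value was 0.857 CPM, in a P7 cone library. The log2 differences of bipolars from photoreceptors were 6.32 ± 1.79, 9.24 ± 1.79 and 10.48 ± 1.79, with limma adjusted p = 0.014, 0.00076 and 0.00026, and the P7 call was lost without either P7 bipolar library, with differences of 6.54 and 6.09. Of the amacrine markers, 6 of 8 listed were in the table. All 6 had reads in the bipolar libraries, apart from 1 with none in rod bipolar library 1. Their sum was 155 and 228 CPM at P7, 72.4 and 273 CPM at P13, 348 and 406 CPM at P30, 22.7 and 146 CPM in rod bipolars and 33.9 and 95.5 CPM in cone bipolars. Gria3 had 0.777 and 10.7 CPM in rod bipolars and 1.60 and 3.58 CPM in cone bipolars. Within each of the 5 bipolar groups the library with more amacrine marker RNA also held more Gria3. Across groups this did not hold, as both P7 libraries had more amacrine marker RNA but less Gria3 than P13 library 1. Summed ganglion cell markers were 14.2 and 6.10 CPM at P7, 9.26 and 103 CPM at P13 and 72.1 and 80.7 CPM at P30. They were 10.4 and 33.7 CPM in rod bipolars and 11.3 and 19.6 CPM in cone bipolars. Within each group other than P7 they ran in the order of Gria3. The summed Müller glia markers were 179 and 173 CPM at P7, 713 and 897 CPM at P13 and 4109 and 6359 CPM at P30. The part of these cells in the Gria3 values was not tested.

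The sequence before a gene's start was at hand for Gria2 and Gria4, which were high in bipolars, and for Grik3, which was high in cones. The 250 bases upstream of the start, credited to RefSeq on GRCm38.p6 and shown to compare these genes, lie at chr3:80802836-80803085 (minus strand), chr9:4796235-4796484 (minus strand) and chr4:125490446-125490695 (plus strand).
Gria2: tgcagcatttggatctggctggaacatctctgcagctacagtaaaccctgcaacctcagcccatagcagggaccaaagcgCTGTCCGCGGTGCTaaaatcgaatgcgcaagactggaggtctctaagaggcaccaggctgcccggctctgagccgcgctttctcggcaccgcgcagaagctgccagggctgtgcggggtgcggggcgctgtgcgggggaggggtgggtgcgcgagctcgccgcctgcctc
Gria4: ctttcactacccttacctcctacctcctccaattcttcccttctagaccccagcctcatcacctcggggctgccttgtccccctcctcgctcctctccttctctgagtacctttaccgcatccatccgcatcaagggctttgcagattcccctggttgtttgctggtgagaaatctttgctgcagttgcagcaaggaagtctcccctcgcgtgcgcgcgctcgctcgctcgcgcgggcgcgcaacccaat
Grik3: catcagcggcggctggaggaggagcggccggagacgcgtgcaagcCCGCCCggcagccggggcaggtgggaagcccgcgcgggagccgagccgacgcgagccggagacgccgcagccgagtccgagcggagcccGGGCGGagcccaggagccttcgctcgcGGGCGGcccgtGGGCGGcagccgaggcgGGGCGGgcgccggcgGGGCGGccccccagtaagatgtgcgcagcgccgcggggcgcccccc
Each is printed 5′ to 3′. Capitals mark matches to the RE1 core (AGCACC and GGACAG with 2 bases between, either strand), the element read by the repressor REST, and to the GC box (GGGCGG, either strand), a site of Sp-family factors. The Gria2 window held an RE1 core on the minus strand at bases -170 to -157, a match found in 15 of 32851 upstream windows (0.0457%). The Grik3 window held 6 GC boxes and had a GC content of 82%, and 32.7% of all windows held at least 1 GC box. The Gria4 window had neither match. The letters TAATCC on either strand, bound by the photoreceptor factors OTX2 and CRX, were in none of the 5 member windows at hand (these 3, Grik2 and Grik5) and in 6.25% of all windows. For Grik5 the bases after the stated start were not found in a transcript, so its window may not lie at the gene's start. The E-box (CANNTG), not marked above, was in each of the 3 printed windows and in 66.2% of all windows. These matches are descriptions of the letters.

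Grik1 (chr16:87895900-88290265, minus strand), the kainate subunit that OFF bipolar cells of mice are known to use, was the leading kainate gene of every bipolar group. Bipolars had 563 and 543 CPM at P7, 216 and 218 CPM at P13 and 172 and 269 CPM at P30. P7 rods held no Grik1 read, P13 rods had 0.316 and 0.226 CPM and P30 rods had 2.97 and 0.186 CPM. Cones had 21.5 and 5.55 CPM at P7, 0 and 24.5 CPM at P13 and 112 and 0.294 CPM at P30. The libraries of P13 cones and those of P30 cones thus disagreed widely, and the higher P30 cone library lay just under the lowest bipolar-type value, 116 CPM in a cone bipolar library. Bipolars were higher than photoreceptors by 10.94 ± 2.40, 9.32 ± 2.40 and 6.68 ± 2.40 on the log2 scale, with limma adjusted p = 0.0028, 0.006 and 0.034. At P7 bipolar Grik1 was at least 17608-fold above rods. At P30 the call was lost without bipolar library 1 (7.003), bipolar library 2 (6.36), rod library 2 (5.69) or cone library 2 (4.55). With only the compared groups fitted, the calls at P13 (limma adjusted p = 0.091) and P30 (0.088) were lost.

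Per kilobase of exon, Grik1 made up 89.4% to 98.3% of the kainate subunit signal in the 10 bipolar libraries. The sum over the 4 kainate genes at P7 was 84.0 ± 1.76 CPM per kb (SD, n = 2), against 28.4 ± 2.58 CPM per kb for the 4 AMPA genes. At P13 the order was reversed, with an AMPA sum of 79.2 ± 5.15 CPM per kb and a kainate sum of 34.0 ± 0.58 CPM per kb. Linear amplification can shorten transcripts, so dividing by exon length may not make levels of different genes fully comparable.

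Grik2 (chr10:49094833-49788766, minus strand) and Grik5 (chr7:25009849-25072346, minus strand), a core and an auxiliary kainate subunit, were low in all groups. Grik2 had 3.89 to 11.4 CPM over the 10 bipolar libraries and 0 to 12.3 CPM over the 12 photoreceptor libraries. It had no read in either P30 cone library. Against the mean of rods and cones, bipolars were called higher at P13 (4.17 ± 1.496, limma adjusted p = 0.036) and at P30 (7.86 ± 1.496, limma adjusted p = 0.00064). At P13 the bipolar mean was 50.0 times the rod mean but 1.35 times the cone mean, and the bipolar and cone ranges overlapped. The P13 call was lost without bipolar library 1 (4.68), bipolar library 2 (3.65), rod library 2 (3.34) or cone library 1 (2.84). It was also lost with only the compared groups fitted (limma adjusted p = 0.17). Grik5 had the narrowest range of the 9 genes and no call in any of the 15 comparisons. In rods, Grik5 made up 54.5% to 95.005% of the kainate signal per kilobase.

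Grik3 (chr4:125490700-125714173, plus strand), another core kainate subunit, was the one member that stood highest in cones. Bipolars had 1.16 and 1.41 CPM at P7, 0.630 and 0.582 CPM at P13 and 1.43 and 1.68 CPM at P30. Rods had 2.19 and 6.38 CPM at P7, 0.211 and 0.0252 CPM at P13 and 0.385 and 0.204 CPM at P30. Cones had 23.4 and 21.3 CPM at P7, 13.8 and 12.2 CPM at P13 and 0 and 3.12 CPM at P30. The cone libraries of P7 and P13 lay above every other library of the series, and their replicates differed little. The ratio of bipolar to cone means was 0.0577 at P7 and 0.0466 at P13. Against the mean of rods and cones, the bipolar differences of -2.82 ± 1.66 at P7, -0.77 ± 1.66 at P13 and 2.90 ± 1.66 at P30 were not called, with limma adjusted p = 0.23, 0.74 and 0.17. On the log2(CPM + 1) scale Grik3 was called lower in bipolars at P7 (-2.22) and P13 (-1.30). With only the compared groups fitted, it was also called lower in bipolars at P7 (-2.82, limma adjusted p = 0.014). Without P30 cone library 2 it was called higher in bipolars at P30 (5.09).

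Grid1 (chr14:34820108-35583379, plus strand), the delta subunit, had 25.04 and 26.5 CPM in P7 bipolars, 39.1 and 44.0 CPM in P13 bipolars and 44.5 and 51.3 CPM in P30 bipolars. Over the 12 photoreceptor libraries 4 held no read and the highest value was 2.78 CPM. Bipolars were higher by 7.19 ± 1.88, 10.36 ± 1.88 and 9.17 ± 1.88 on the log2 scale, with limma adjusted p = 0.0088, 0.00045 and 0.0011. The P7 call was lost without either P7 bipolar library, with differences of 7.23 and 7.15, and with only the compared groups fitted (limma adjusted p = 0.073). At P13, where rods held no Grid1 read, bipolars were at least 945-fold above rods.

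**Figure D2:**
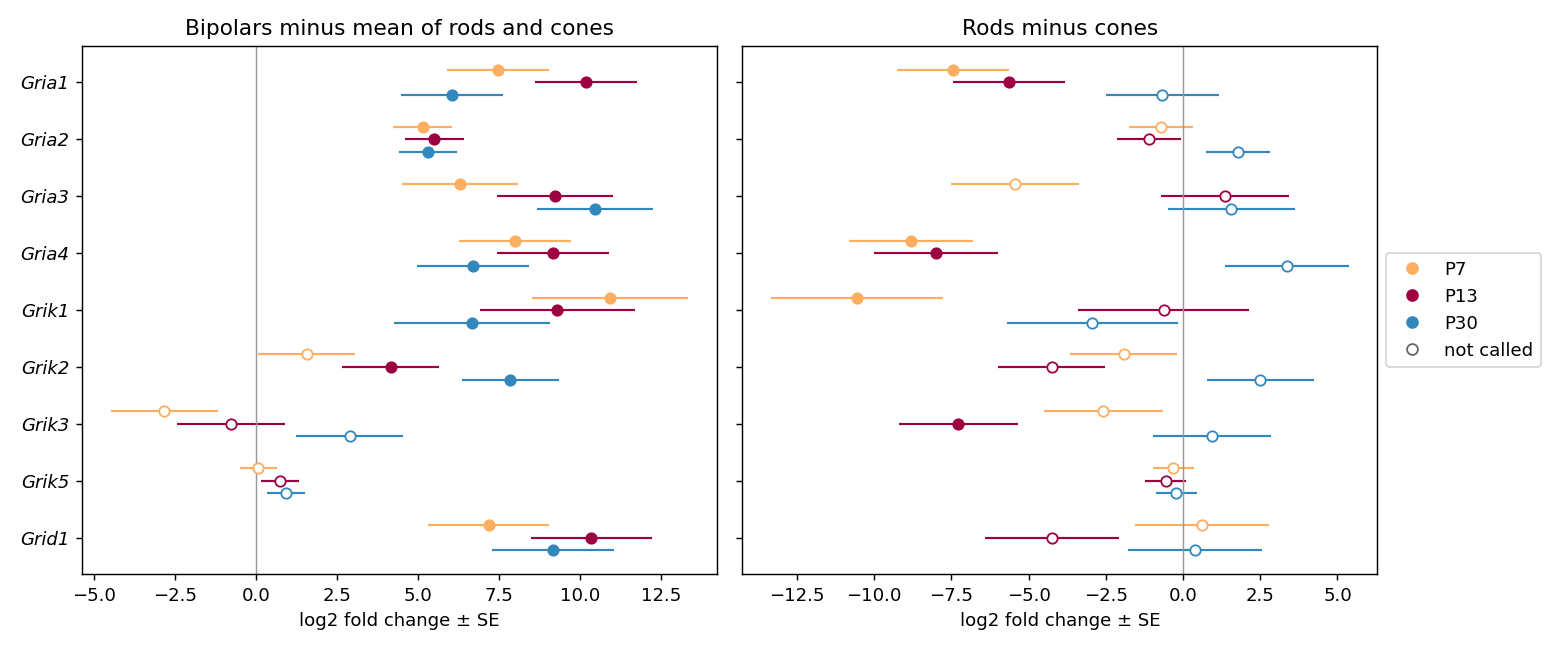
Fitted log2 fold change with its SE for each subunit gene, for bipolars minus the mean of rods and cones (left) and rods minus cones (right), by age. Filled points are called and open points are not. The bipolar differences of the AMPA genes, Grik1 and Grid1 were called at all 3 ages, and the filled points for rods against cones lie at P7 and P13. Both panels use the same rod and cone libraries.

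The called differences between rods and cones at P7 and P13 were all lower in rods. At P7 limma called 3 of the 9 genes lower in rods, where 9.52% of all tested genes were called lower, and none higher, against 3.30%. At P13 it called 3 lower, against 14.1%, and none higher, against 7.10%. At P30 limma called no member, against 9.98% of all genes higher and 10% lower, with 0 of 9 at an unadjusted p below 0.05 and 0 calls by voom on the recovered reads. The P7 calls were Gria1 (-7.44 ± 1.82, limma adjusted p = 0.011), Gria4 (-8.81 ± 2.00, limma adjusted p = 0.0069) and Grik1 (-10.55 ± 2.77, limma adjusted p = 0.017). With no read in either P7 rod library, these genes were at least 59.0-fold, 133-fold and 430-fold lower in rods than the cone mean. All 3 calls were lost on log2(CPM + 1), where Gria1 differed by -1.33, Gria4 by -2.16 and Grik1 by -3.60, and Grik1 was also not called by voom. Grik3 was called lower in P7 rods instead on log2(CPM + 1) (-2.26) and also by voom (-2.61).

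The P13 calls were Gria1, Gria4 and Grik3. Grik3 was lower in rods (-7.27 ± 1.92, limma adjusted p = 0.011). Gria4 had no read in P13 rods, at least 115-fold below the mean of the cone libraries, which had 0.348 and 9.74 CPM (-8.00 ± 2.00, limma adjusted p = 0.0083). Gria1 had 1 read in P13 rods and 551 reads in P13 cones, a ratio of 0.00219 with an exact 95% counting interval of 5.54e-05 to 0.0123 (fitted difference -5.62 ± 1.82, limma adjusted p = 0.032). The Gria1 and Gria4 reads of P13 cones came mostly from library 2. It also held more marker RNA than library 1 for OFF bipolars (57.8 and 3.99 CPM) and amacrine cells (70.7 and 6.75 CPM). The same was true for ON bipolars (113 and 61.2 CPM) and horizontal cells (11.5 and 8.79 CPM). Library 2 held less for Müller glia (241 and 333 CPM) and ganglion cells (19.0 and 31.0 CPM). Likewise P7 cone library 1 exceeded library 2 in OFF-bipolar markers (32.3 and 5.84 CPM), in Gria1, Gria4 and Grik1. It also did in markers of ON bipolars (151 and 34.1 CPM), amacrine cells (44.1 and 13.8 CPM) and horizontal cells (29.1 and 11.1 CPM). Markers of rod bipolars were similar in the P7 cone libraries (274 and 276 CPM). P30 cone library 1 exceeded library 2 in OFF-bipolar markers (22.2 and 3.24 CPM) and in Grik1. It did not in markers of ON bipolars (23.8 and 36.0 CPM), amacrine cells (9.13 and 10.1 CPM) or horizontal cells (0.841 and 8.77 CPM). Of the 6 OFF-bipolar markers, 4 and 2 had no reads in P13 cone libraries 1 and 2, and 2 and 5 in those of P30. Grik3 did not follow the OFF-bipolar markers at P13, where library 1 held 13.8 CPM and library 2 held 12.2 CPM.

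Each of the calls between rods and cones was lost on leaving out at least 1 of the compared libraries. For Grik3 at P13, whose 2 cone libraries were alike, the difference itself changed little without either cone library. With only the compared groups fitted, all 3 P13 calls were lost and Grid1 (-4.23, limma adjusted p = 0.048) was called lower in rods instead. Grid1 lay near the limit of detection there, with 0.0927 and 0.178 CPM in P13 cones and no read in P13 rods. Set against 3 reads over the group, it was at least 3.08-fold lower in rods. On log2(CPM + 1) Gria1 and Gria4 were lost at P13, and Gria1 was also not called by voom (-5.07). At P7, no member was called without cone library 1, 1 without rod library 1, and 2 without rod library 2 or cone library 2. At P13, none was called without cone library 2, 1 without rod library 2, 3 without cone library 1 and 4 without rod library 1. Without cone library 2 the P13 differences were -1.61 for Gria1, -5.61 for Gria4 and -7.36 for Grik3, and without cone library 1 Grik3 (-7.18) was not called whereas Grik2 (-6.91) was. At P30, Gria2 (3.55) and Gria4 (7.78) were called higher in rods without cone library 1, and Grik3 (5.31) was called higher in rods without cone library 2. The part of other cell types in these values was not tested.

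In rods, P30 against P13 gave 2 members called higher, against 6.74% of all genes, and none lower, against 5.30%. Gria1 was higher at P30 by 6.90 ± 1.82 (limma adjusted p = 0.019), with 237 reads in the P30 libraries and 1 read in the P13 libraries. Gria4 was higher at P30 by 7.78 ± 2.00 (limma adjusted p = 0.017), at least 40.3-fold over 3 reads. No member was called when rod library 2 of P13 or either rod library of P30 was left out, on log2(CPM + 1) or with only the compared groups fitted, and voom called Gria4 alone. P13 against P7 in rods gave no call by limma, against 12.6% of all genes called in either direction, with 2 of 9 at an unadjusted p below 0.05 and 1 call, Grik3 lower at P13, by voom.

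In cones, P13 against P7 gave no member called by limma, against 0.440% of all genes, with 0 of 9 at an unadjusted p below 0.05 and 0 calls by voom. P30 against P13 gave Grik2 lower (-8.07 ± 1.73, limma adjusted p = 0.018), where 2.35% of all genes were called lower, and no member higher, against 0.850%. P30 cones held no Grik2 read, against 0.301 and 12.3 CPM in P13 cones. Set at 3 reads over the group, P30 lay at least 124-fold below the P13 mean, a bound that rests mostly on P13 library 2. Of the P13 reads, 484 came from library 2, which held more OFF-bipolar and amacrine marker RNA, and 13 from library 1. The call was lost without P13 cone library 2 (-5.41), without P30 cone library 1 (-8.07), on log2(CPM + 1) (-2.06), by voom (-6.75) and with only the compared groups fitted. Mitochondrial genes took 38.7% and 28.6% of the reads of P30 cones, against 17.4% and 17.5% in P13 cones, and the part of this in the cone differences was not tested. Mean Grik3 in cones was 22.3 ± 1.48 CPM at P7, 13 ± 1.16 CPM at P13 and 1.56 ± 2.21 CPM at P30 (SD, n = 2 each), with no overlap between P13 and P30. That difference was not called by limma on the deposited values of all libraries. It was called without P30 cone library 2 (-10.80), on log2(CPM + 1) (-2.78), with plain library totals (-6.49) and by voom (-5.57).

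The change between P7 and P30 was also compared between cell types. Gria4 was the 1 member called when the change in rods was set against that in cones (12.17 ± 2.82 on the log2 scale, limma adjusted p = 0.013), where 6.04% of all genes were called higher and 4.57% lower. Its fitted level was 7.78 ± 2.00 higher at P30 than at P7 in rods and differed by -4.39 ± 2.00 in cones, and these sizes depend on the value given to libraries with no read. The call was lost without P7 cone library 1 (11.12), on the log2(CPM + 1) scale (2.51) and with only the compared groups fitted (limma adjusted p = 0.13). The change in bipolars set against that in photoreceptors gave no call by limma, against 11.1% of all genes, with 2 of 9 at an unadjusted p below 0.05 and 1 call, Grik2, by voom.

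**Figure D3:**
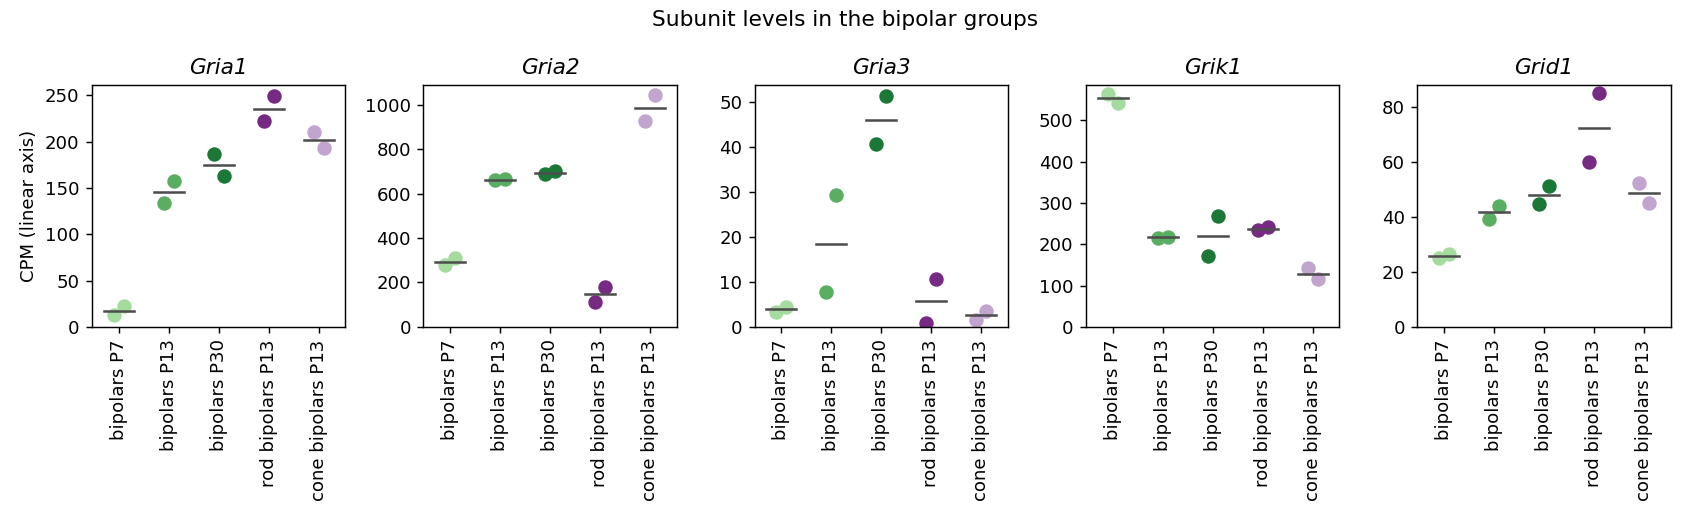
CPM of 5 subunit genes in the libraries of the 5 bipolar groups, on linear axes that start at 0. Dots are libraries and bars are means of 2 libraries. Gria1 stood lowest and Grik1 highest at P7, and Gria2 separated rod bipolars, at 114 and 178 CPM, from cone bipolars, at 928 and 1043 CPM.

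Among bipolars, Gria1 and Gria2 were higher and Grik1 lower at P13 than at P7. Using the spread shared by all 22 libraries, limma called none of these, against 2.98% of all genes, with 0 of 9 at an unadjusted p below 0.05 and 1 call, Gria1, by voom. That spread includes the photoreceptor libraries, whose values for these genes are given above. A fit of the 5 bipolar groups alone, chosen after seeing the data and with 5 residual degrees of freedom, called 2 members higher, against 7.58% of all genes, and 1 lower, against 1.86%. In it, Gria1 was higher at P13 by 3.09 ± 0.22 (limma adjusted p = 3.2e-05) and Gria2 by 1.18 ± 0.19 (limma adjusted p = 0.003). Grik1 was lower, with a difference of -1.35 ± 0.19 (limma adjusted p = 0.0016). The differences of Gria4 (0.77 ± 0.18, limma adjusted p = 0.022) and Grid1 (0.69 ± 0.20, limma adjusted p = 0.047) fell short of 1. The libraries of the 2 ages did not overlap for any of these genes. Summed horizontal cell markers, 2 of 4 listed being in the table and both with reads, were 31.1 and 51.3 CPM in P13 bipolars, against 136 and 175 CPM in P7 bipolars. Summed Müller glia markers were 713 and 897 CPM in P13 bipolars, against 179 and 173 CPM in P7 bipolars. The part of these cells in the differences of the subunit genes was not tested. P30 against P13 gave no member called in either limma fit, against 1.86% and 5.57% of all genes, with 0 of 9 at an unadjusted p below 0.05 in both and 0 calls by voom.

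Rod bipolars and cone bipolars differed most in Gria2. Rod bipolars had 114 and 178 CPM of Gria2, against 928 and 1043 CPM in cone bipolars, so the ranges were apart. The log2 difference was -2.79 ± 1.04 with the spread of all libraries (limma adjusted p = 0.15, with no member called against 4.68% of all genes, 1 of 9 at an unadjusted p below 0.05 and 1 call, Gria2, by voom). It was -2.79 ± 0.19 in the fit of bipolar groups (limma adjusted p = 1.6e-05), which called 1 member lower, against 8.12% of all genes, and none higher, against 3.61%. Gria1, the other abundant AMPA gene, had 222 and 249 CPM in rod bipolars, against 210 and 193 CPM in cone bipolars (0.22 ± 0.22, limma adjusted p = 0.53 in that fit). Grik1 had 234 and 242 CPM in rod bipolars, against 141 and 116 CPM in cone bipolars, a difference of 0.90 ± 0.19 (limma adjusted p = 0.011) that fell short of 1. Grid1 had 59.8 and 84.9 CPM in rod bipolars, against 52.4 and 44.9 CPM in cone bipolars (0.55 ± 0.20, limma adjusted p = 0.086). Grik3 had 2.46 and 1.36 CPM in rod bipolars, against 0.507 and 0.258 CPM in cone bipolars (2.32 ± 0.86, limma adjusted p = 0.097), and Gria4 had 56.6 and 42.9 CPM in rod bipolars, against 56.1 and 68.4 CPM in cone bipolars (-0.33 ± 0.18, limma adjusted p = 0.26). OFF-bipolar markers summed to 30.7 and 63.4 CPM in rod bipolars, against 322 and 365 CPM in cone bipolars. They thus ran in the order of Gria2 and against that of Grik1. The part of OFF bipolars in the values of both genes was not tested.

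The make-up of the AMPA class shifted accordingly, and the part of OFF bipolars in this shift was not tested. Per kilobase of exon, Gria2 made up 13.8% and 18.9% of the AMPA signal in rod bipolars, against 57.7% and 60.8% in cone bipolars. Gria1 made up 69.2% and 68.1% in rod bipolars, against 33.6% and 29.0% in cone bipolars. On plain CPM, without division by length, the Gria2 share was 28.9% and 37.0% in rod bipolars, against 77.6% and 79.7% in cone bipolars, so the order held on either scale. In the bipolar series the Gria2 share per kilobase was 66.4 ± 0.82% at P7, 53.8 ± 3.26% at P13 and 51.6 ± 0.96% at P30 (SD, n = 2 each). P7 rods had Gria2 as their one AMPA gene with reads.

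**Figure D4:**
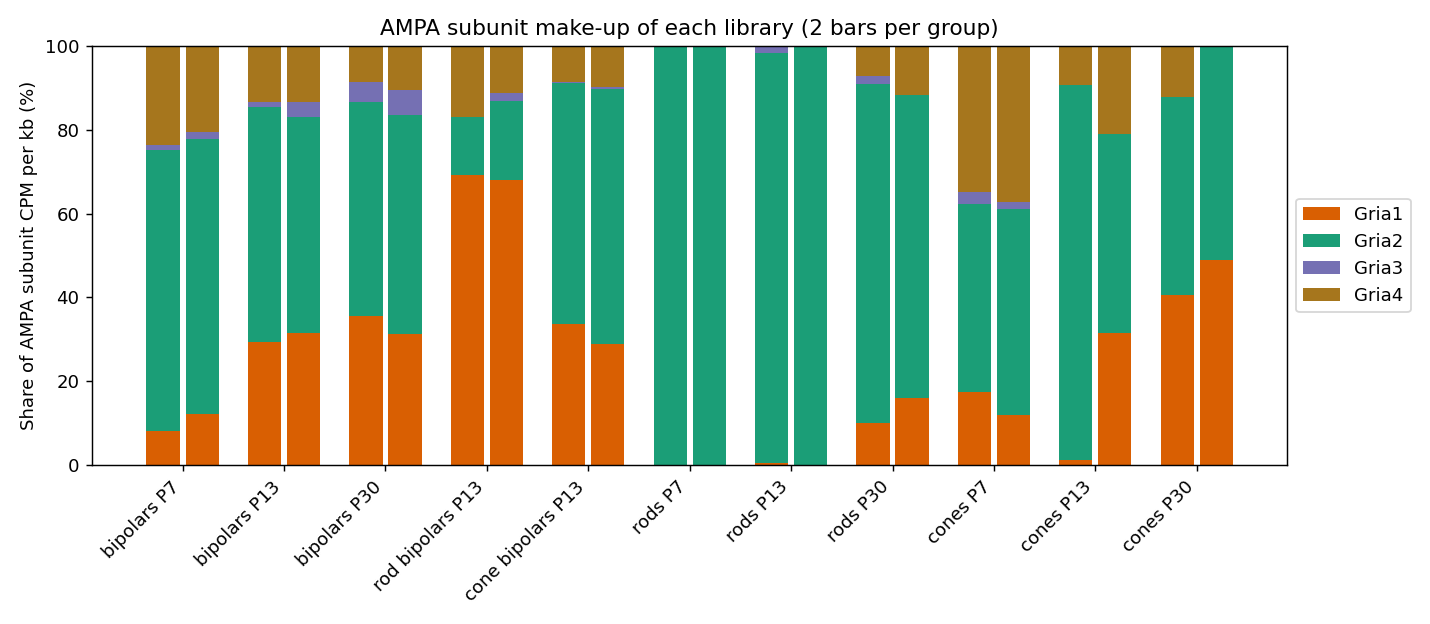
Share of each AMPA gene in the summed AMPA signal per kilobase of exon, in percent, with 2 bars per group, 1 for each library. Gria1 was the largest share in both rod bipolar libraries, Gria2 in every other bipolar library and in all photoreceptor libraries, and the photoreceptor bars rest on sums of at most 7.36 CPM per kb.

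The genes that work with these receptors were described from a list of 51, of which 47 were in the table and all 47 were tested. The list holds NMDA receptor genes, AMPA and kainate auxiliary subunits, scaffolds, synaptic organisers and RNA editing enzymes. Against photoreceptors, 20 of 47 were higher and 2 lower in bipolars at P7, 25 higher and 2 lower at P13, and 29 higher and 3 lower at P30, with the same share of all genes as background as for the subunits. The median log2 difference of the list was 3.18, 3.32 and 3.92, against 0.12, 0.18 and 0.13 over all genes. Neto1, a kainate receptor auxiliary subunit, had 35.6 and 42.4 CPM in P13 bipolars and no read in the 4 rod and cone libraries of that age. Cbln2, a cerebellin that bridges delta receptors to neurexins, had 8.29 and 16.4 CPM in P13 bipolars and at most 0.0765 CPM in P13 photoreceptors. C1ql3, a secreted organiser, ran the other way at P7, with 0.186 and 0.170 CPM in bipolars, against 10.5 and 9.23 CPM in rods and 16.1 and 25.04 CPM in cones (-6.25 ± 1.71, limma adjusted p = 0.012), a call lost without either P7 bipolar library (-6.31 and -6.18).

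**Figure D5:**
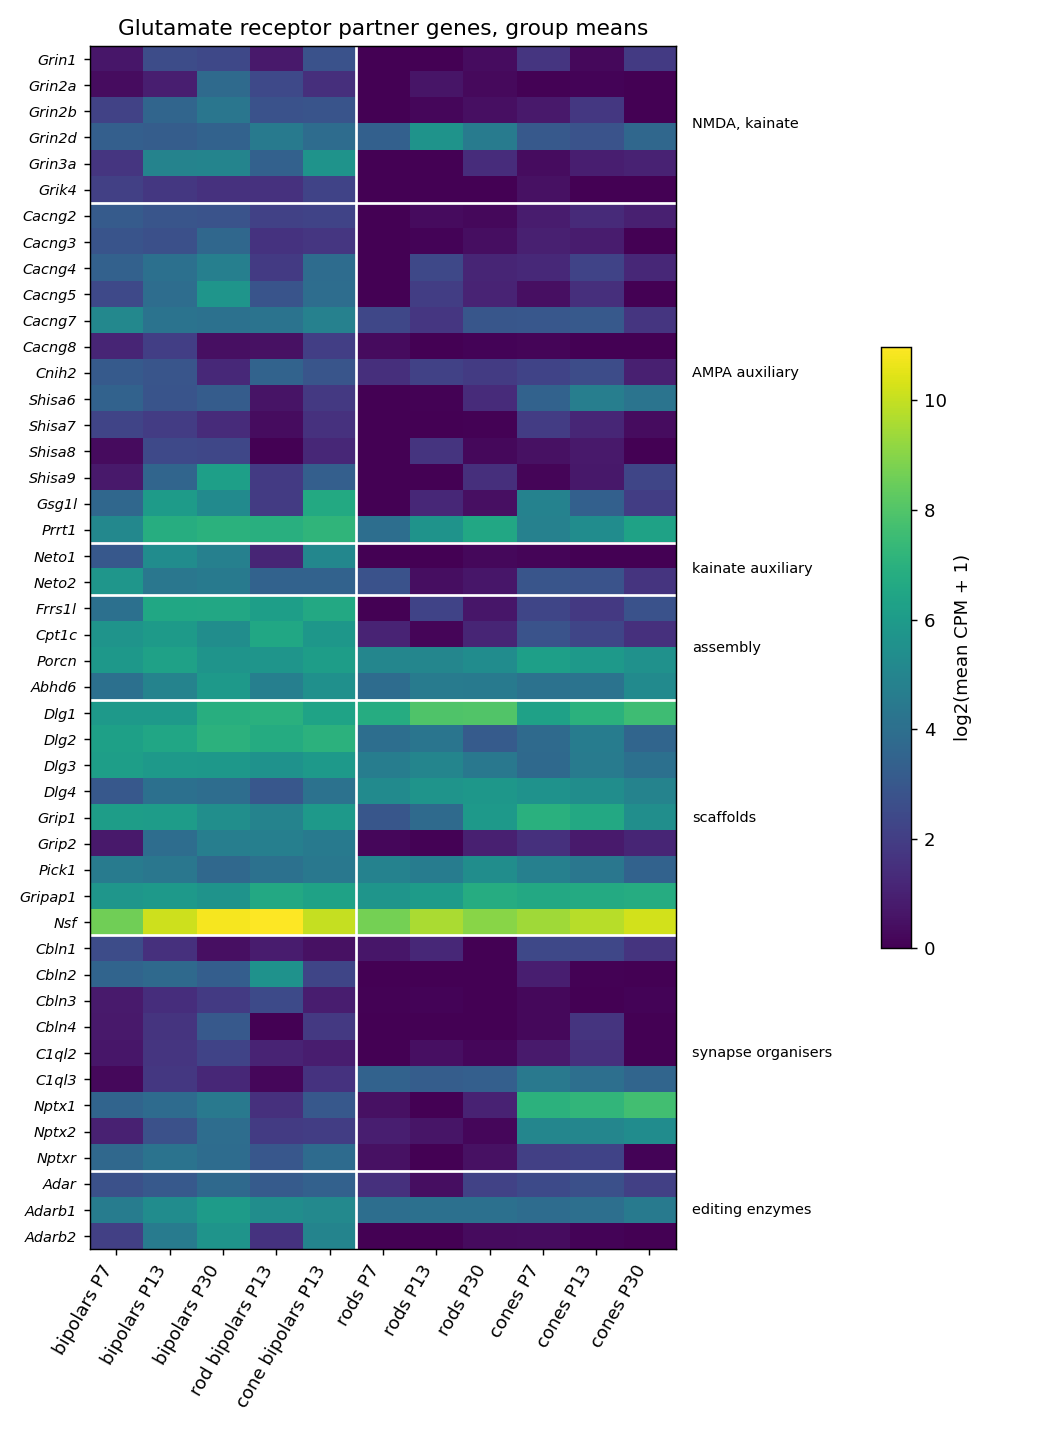
Mean level of the tested partner genes, 1 left out, in the 11 groups, as log2(mean CPM + 1), with bipolar groups left of rods and cones and genes grouped by role. Neto1, Cbln2 and Adarb2 are bright in bipolar columns, Nptx1 and Nptx2 in cone columns, and Gsg1l is dark in rod bipolars beside cone bipolars.

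Between rods and cones the list gave 13 of 47 genes lower in rods at P7, against 9.52% of all genes, and none higher, against 3.30%. It gave 9 lower at P13, against 14.1%, and 1 higher, against 7.10%, and at P30 4 lower, against 10%, and 3 higher, against 9.98%. Its median log2 difference was -2.99, -0.92 and 0.03, against -0.16, -0.11 and 0.14 over all genes. Nptx1, a neuronal pentraxin that gathers AMPA receptors at synapses, had 0 and 0.855 CPM in P7 rods, against 108 and 153 CPM in P7 cones. P30 rods held 2.17 and 0 CPM of Nptx1, against 185 and 219 CPM in cones (-10.64 ± 2.09, limma adjusted p = 0.0016). Nptx2, its relative, was lower in rods at P13 (-8.48 ± 1.94, limma adjusted p = 0.0048) and at P30 (-9.72 ± 1.94, limma adjusted p = 0.0018). Grip1, a scaffold that binds Gria2 and Gria3 proteins, had 7.88 and 5.44 CPM in P7 rods, against 123 and 123 CPM in P7 cones. At P30 Grip1 had 54.0 and 61.9 CPM in rods, against 30.03 and 54.5 CPM in cones, and its change over that time differed between the types by 4.75 ± 0.55 (limma adjusted p = 8.4e-05). Grin2d, an NMDA receptor subunit, was higher in rods at P13, with 40.0 and 56.6 CPM, against 6.24 and 5.61 CPM in cones (3.01 ± 0.46, limma adjusted p = 0.0002). With only the compared groups fitted, the calls of Nptx1 at P7 and P30, of Nptx2 at P13 and P30 and of Grin2d at P13 were lost, with limma adjusted p = 0.10, 0.18, 0.26, 0.12 and 0.056.

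Between rod bipolars and cone bipolars 3 of 47 were lower in rod bipolars and none higher, against 3.17% and 1.51% of all genes. Gsg1l, an AMPA auxiliary subunit, had 0.777 and 4.84 CPM in rod bipolars, against 98.0 and 103 CPM in cone bipolars (-5.68 ± 1.58, limma adjusted p = 0.046). That call was lost with the replicate number as a block, without either cone bipolar library (-5.72 and -5.65) and without rod bipolar library 1 (-4.37). The fit of bipolar groups called 10 lower and 1 higher, against 8.12% and 3.61% of all genes. In that fit Neto1 was lower in rod bipolars, with 1.13 and 1.26 CPM, against 27.4 and 39.2 CPM in cone bipolars (-4.77 ± 0.33, limma adjusted p = 2.0e-05). Cbln2 was the one higher gene, with 44.0 and 51.6 CPM in rod bipolars, against 2.45 and 5.27 CPM in cone bipolars (3.72 ± 0.52, limma adjusted p = 0.0012). Within bipolars over time, Prrt1, an AMPA auxiliary protein, and Nsf, a fusion factor that binds Gria2 protein, were higher at P13 than at P7, by 1.78 ± 0.20 (limma adjusted p = 4.7e-05) and 1.55 ± 0.18 (limma adjusted p = 9.6e-05).

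Genes whose 11 group means ran most like those of the subunits were found by Pearson's r on the log2 scale. Rit2 was closest to Gria1 (0.991). For Gria2 they were Neto1, Spock3 and Adgra1 (0.979, 0.971 and 0.970), and for Gria3 Tectb, Kif1a and Bche (0.980, 0.973 and 0.964). Ankrd6 was closest to Gria4 (0.995), Ociad2 to Grik1 (0.973), Pcdhb8 to Grik2 (0.988), Uqcrc2 to Grik3 (0.926), Actr1b to Grik5 (0.9498) and Tle6 to Grid1 (0.992). Since 5 of the 11 groups are bipolar and 6 photoreceptor, a difference between these classes gives a high r by itself, so these values are descriptions.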

How the data were processed

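The authors deposited 1 table of log2 CPM for all 22 libraries, per the file headers. The submitters' processing notes name STAR, edgeR and the build GRCm38 (mm10), and the labels' protocols name RiboAmp linear amplification and TruSeq v2 libraries, which do not record strand. The members share at most 1.53% of their exon bases with other genes. Values in CPM are 2 to the power of the deposited value minus the value of a library with no read. Within 0.01, 100.0% of values were whole reads.

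Members, gene lists and tests were chosen with earlier results of these data known. Genes with log2 CPM of at least 0 in both libraries of a group were tested (13405; 380 were filtered, and 27 without a symbol were left out) with limma 3.58.1 in R 4.3.3, on the deposited log2 values, by group over all libraries, with an intensity trend and Benjamini-Hochberg adjustment over all tested genes (11 residual degrees of freedom). The script was tested on simulated data. Floors and intervals cover counting error only. Each ratio given as at least a certain fold uses the mean of the 2 libraries of the group with reads, so it leaves out their scatter.

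Partners were named where called with at least 8 CPM in the higher group, at most 6 per comparison by size. The 3 most similar genes had group means of at least 3 on the log2 scale in a group. A partner gene and a similar gene are not reported here by name. Positions and exon lengths are GENCODE M21. The table of upstream sequences held 5 of the 9 members. Replicate numbers were not used to pair libraries in the main fit. Correlations of deviations (-0.142 to 0.193 over 55 pairs of groups) cannot settle whether they pair libraries.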

Additional observations from a re-analysis of the deposited data

Results flagged for a closer look

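Gria4 changed differently with age in rods and in cones. From P7 to P30 its fitted log2 level changed by 7.78 ± 2.00 (SE) in rods and by -4.39 ± 2.00 in cones, and the test of the difference itself gave 12.17 ± 2.82 (limma adjusted p = 0.013). In this test 6.04% of all tested genes were called higher. Gria4 was the 1 member called, and rods held no Gria4 read at P7 and 0.996 and 2.55 CPM at P30, against 6.76 and 1.57 CPM in P7 cones and 3.32 and 0 CPM in P30 cones. The fitted size depends on the value given to a library with no read. The call was lost without P7 cone library 1 (11.12), on the log2(CPM + 1) scale (2.51) and with only the compared groups fitted.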

How the results depend on the processing

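No called subunit difference reversed under any alternative. Of the 30 called subunit differences, all 30 were kept without the filter on low values, with the replicate number as a block and with plain library totals, 26 by voom on the recovered reads (an alternative added after seeing the data), 21 on log2(CPM + 1), and 18 when only the compared groups were fitted, which leaves fewer libraries to estimate the spread. On log2(CPM + 1) the number of subunits called was 1 for rods against cones at P7 (Grik3, not among the 3 reported), 1 at P13, 1 for rods P13 against P7, 0 for rods P30 against P13, 1 for bipolars P13 against P7, 1 for rod against cone bipolars, 0 for the P7 to P30 change of rods against cones and 2 for that of bipolars against photoreceptors. With only the compared groups it was 1 for rods against cones at P13 (Grid1, none of the 3 reported), 5 for bipolars against photoreceptors at P13 and at P30, 0 for rods P30 against P13, 0 for cones P30 against P13, 3 for bipolars P13 against P7, 1 for rod against cone bipolars and 0 for the P7 to P30 change of rods against cones. With plain totals it was 1 for rods P13 against P7 and 2 for cones P30 against P13. On log2(CPM + 1) and by voom, Grik3 took the place of Grik2 as the 1 call for cones P30 against P13. For bipolars against photoreceptors at P7, Grik3 (lower) took the place of Grid1 with only the compared groups. On log2(CPM + 1) Grik3 was also called lower in bipolars than in photoreceptors at P7 and P13. With voom the number was 1 for each of rods P13 against P7, rods P30 against P13, bipolars P13 against P7, rod against cone bipolars and the P7 to P30 change of bipolars against photoreceptors. The 5 bipolar groups alone gave 3 for bipolars P13 against P7 and 1 for rod against cone bipolars. Apart from the fitted groups, the cause was not tested.

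Leaving out each library in turn gave 0 to 2 calls for rods against cones at P7, 0 to 4 at P13 and 0 to 2 at P30, 4 to 6, 6 to 7 and 5 to 7 for bipolars against photoreceptors at P7, P13 and P30, 0 to 1 for rods P13 against P7, 0 to 2 for rods P30 against P13, 1 to 2 for cones P30 against P13, 0 to 2 for the P7 to P30 change of rods against cones and 0 to 1 for that of bipolars against photoreceptors. Of the values so recomputed for called differences, 129 stayed called and 35 did not. With the replicate block, the calls per comparison were unchanged (3, 3 and 0 for rods against cones), and among the partner genes named, Gsg1l in rod against cone bipolars lost its call. With only the compared groups, Nptx1, Nptx2 and Grin2d calls between rods and cones were among those lost. The planned edgeR fit was not run. With 2 libraries per group and photoreceptor levels of a few reads, differences between rods and cones below the floor of 3 reads were not detectable at this depth.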
